A study of Mus musculus with 10 samples.

Results

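The mouse mitochondrial genome encodes 37 genes, all with symbols that start with mt-. They are 13 messenger RNAs for subunits of the respiratory chain, 2 ribosomal RNAs and 22 transfer RNAs. All 37 were found by that prefix among 54838 genes of a read count table for group 2 innate lymphoid cells (ILC2), tissue lymphocytes that lack antigen receptors and make type 2 cytokines. The libraries came from C57BL/6 mice, 5 c-Maf KO and 5 WT, whose lungs had been inflamed with papain, a protease allergen. ILC2 were sorted from lung as lineage-negative, CD90.2-positive cells, with or without ST2 and KLRG1, and total RNA was sequenced with a strand-specific kit. Littermates were housed together, and c-Maf is the transcription factor encoded by Maf. The part of Maf that was deleted, the cells in which it was deleted and the age of the animals are not given in the labels used here. Library numbers follow accession order in a genotype and pair nothing. Each library title carries its own number of unstated meaning, and all KO numbers are above all WT numbers. No label states that each library came from its own animal. The p-values below therefore reflect differences among libraries that may be technical.

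Both strands of the mitochondrial genome are transcribed as long precursors that run through many genes. Transfer RNAs lie between most of the other genes, and cutting them out frees the messenger and ribosomal RNAs. The ribosomal RNAs and most messengers come from the heavy-strand transcript, while mt-Nd6 and a minority of transfer RNAs come from the light strand. In lymphocytes the encoded subunits serve oxidative phosphorylation, which supports ATP production and redox balance during activation.

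The libraries differed before any comparison of mitochondrial genes. KO libraries held 3620002 to 9867580 counts and WT libraries 21400938 to 24489987. Genes with any count numbered 4052 to 7660 in KO and 10577 to 12744 in WT. Maf, the targeted gene, had 0, 0, 0, 108 and 0 counts in KO libraries 1 to 5, against 3252, 3832, 1412, 1696 and 2727 in WT libraries 1 to 5. For Maf, log2(CPM + 1) differed with p = 0.00794 in a two-sided exact permutation test, the smallest that 5 against 5 libraries allow and the value that any gene without overlap between the groups gets. The edgeR test used below put its log2 fold change at −4.34 (SE 2.06, adjusted p = 0.141), which does not pass. KO library 1 stood apart: 4 globin genes took 18.96% of its counts, against 0.0107 to 0.0748% in the other KO libraries and 0.000139 to 0.000919% in WT. Its 100 most counted nuclear genes held 93.1% of its nuclear counts. That share was 34.9 to 41.0% in the other KO libraries and 22.8 to 33.1% in WT. All 10 ILC2 markers had counts in both groups, with a summed level of 752 to 15722 counts per 1000000 (CPM, per library size) in KO and 5729 to 9230 in WT. Single KO libraries lacked some: in KO library 1 Klrg1 had 1 count, Ptprc 5, Thy1 8 and Id2 15, and the rest 122 to 1562. In KO library 3 Id2 had 0 counts and Klrg1 2. The summed level of 8 erythroid markers was 120 to 190355 CPM in KO and 9.10 to 25.0 CPM in WT, and 1 of the 8 was at 0 in KO and 2 in WT. Summed over their lists, T cell markers reached at most 23.5 CPM in KO and 130 CPM in WT, B cell markers 186 and 6.73 CPM, myeloid markers 6.31 and 519 CPM, epithelial markers 0.553 and 10.1 CPM, and endothelial markers 13.7 and 166 CPM. The 3 NK cell markers were at 0 in every library.

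Only 13 of the 37 genes had any count, and 10 passed the filter on low counts that the test uses. Those 10 were both ribosomal RNAs, 7 messengers (mt-Nd1, mt-Nd2, mt-Co1, mt-Nd4, mt-Nd5, mt-Nd6 and mt-Cytb) and 1 transfer RNA, mt-Tp. mt-Co2 and mt-Atp6 had 0 counts in KO and 1 each in WT, and mt-Nd3 had 14 in KO and 78 in WT. mt-Atp8, mt-Co3 and mt-Nd4l were listed at 0 in every library, as were 21 of 22 transfer RNAs. The 6 weak messengers neighbour one another between mt-Co1 and mt-Nd4, and 5 of them are nearly identical to pseudogenes in a block on chromosome 1, which carries copies of mitochondrial DNA in the nucleus.

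The following sequences are shown because they set genes with and without counts beside their nearest nuclear copies. They were read from GENCODE M21 transcripts (GRCm38), 5′ to 3′, and a capital marks a letter that differs between gene and copy. The first pair covers bases 1 to 60 of mt-Nd3 and differs by T3C, counted from base 1 of the mt-Nd3 transcript. The second pair covers bases 312 to 371 of mt-Co2, and the third bases 542 to 601 of mt-Cytb.
mt-Nd3: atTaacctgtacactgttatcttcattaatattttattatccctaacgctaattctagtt
Gm28438: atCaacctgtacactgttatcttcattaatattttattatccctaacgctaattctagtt
mt-Co2: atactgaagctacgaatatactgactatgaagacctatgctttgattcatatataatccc
Gm28661: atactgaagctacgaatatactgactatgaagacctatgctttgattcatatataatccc
mt-Cytb: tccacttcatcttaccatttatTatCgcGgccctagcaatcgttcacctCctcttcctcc
Gm11410: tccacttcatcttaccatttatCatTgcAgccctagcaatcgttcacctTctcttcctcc
mt-Co2, without counts in KO, has no letter of its own in this stretch, whereas mt-Cytb, counted in every library, has 4.

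Windows of 50 bases were used to measure how much of each gene has an exact copy, on either strand, in a GENCODE transcript outside the mitochondrial genome. The share of windows with an exact copy was 100% for mt-Co2 and 99.9% for mt-Co3, which encode subunits of cytochrome oxidase (complex IV). It was 99.5% for mt-Atp6, a subunit of ATP synthase (complex V), and 98% for mt-Nd3 and 98.8% for mt-Nd4l, subunits of NADH dehydrogenase (complex I). Together these 5 genes had 94 counts over all 10 libraries and at most 39 in any library. Of the ribosomal RNAs, mt-Rnr2 had a share of 1.04% and mt-Rnr1 of 0%. The transcripts that hold the copied mt-Rnr2 windows were not identified. The 8 other messengers had shares from 0 to 62.2%, and 7 of them were counted in every library, with a lowest value of 7. The exception was mt-Atp8, a small ATP synthase subunit, which had no window with an annotated copy and no count. On chromosome 1, 233 bases separate Gm28661, the copy of mt-Co2, from Gm10925, the copy of mt-Atp6. The matching stretches of the mitochondrial genome are also 233 bases apart. mt-Atp8 lies between them except for its end, which overlaps mt-Atp6. The bases between these copies were not compared with mt-Atp8 by sequence.

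The block on chromosome 1 (GRCm38, 24611535 to 24616197) holds 7 annotated copies over 4663 bases, on the minus strand and in the same order as the genes. It matches the mitochondrial genome from base 6390 in mt-Co1 to base 11042 in mt-Nd4. The spaces between neighbouring copies equal those between the genes at 5 of 6 places, and at the sixth place 74 bases stand against 73. mt-Nd4 is split by the end of the block: bases 1 to 876 of its 1378 match Gm28439 with 100% identity, and 502 of its 1329 windows have no copy. mt-Co1 has copies outside the block as well. Its last 483 bases match Gm29216 in the block with 1 letter of difference (A1066T, counted from base 1 of mt-Co1). All 1545 bases match Gm13340 on chromosome 2 at 97.61% identity, and 654 bases match Gm11512 on chromosome 11 at 90.67%. The 16 annotated nuclear copies found in the table had few counts themselves: the strongest, Gm29216, had 11 in KO and 104 in WT. The handling of reads that match several places is not stated, and its part in the missing counts was not tested. The 6 weak messengers are therefore treated as not measured.

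**Figure D1:**
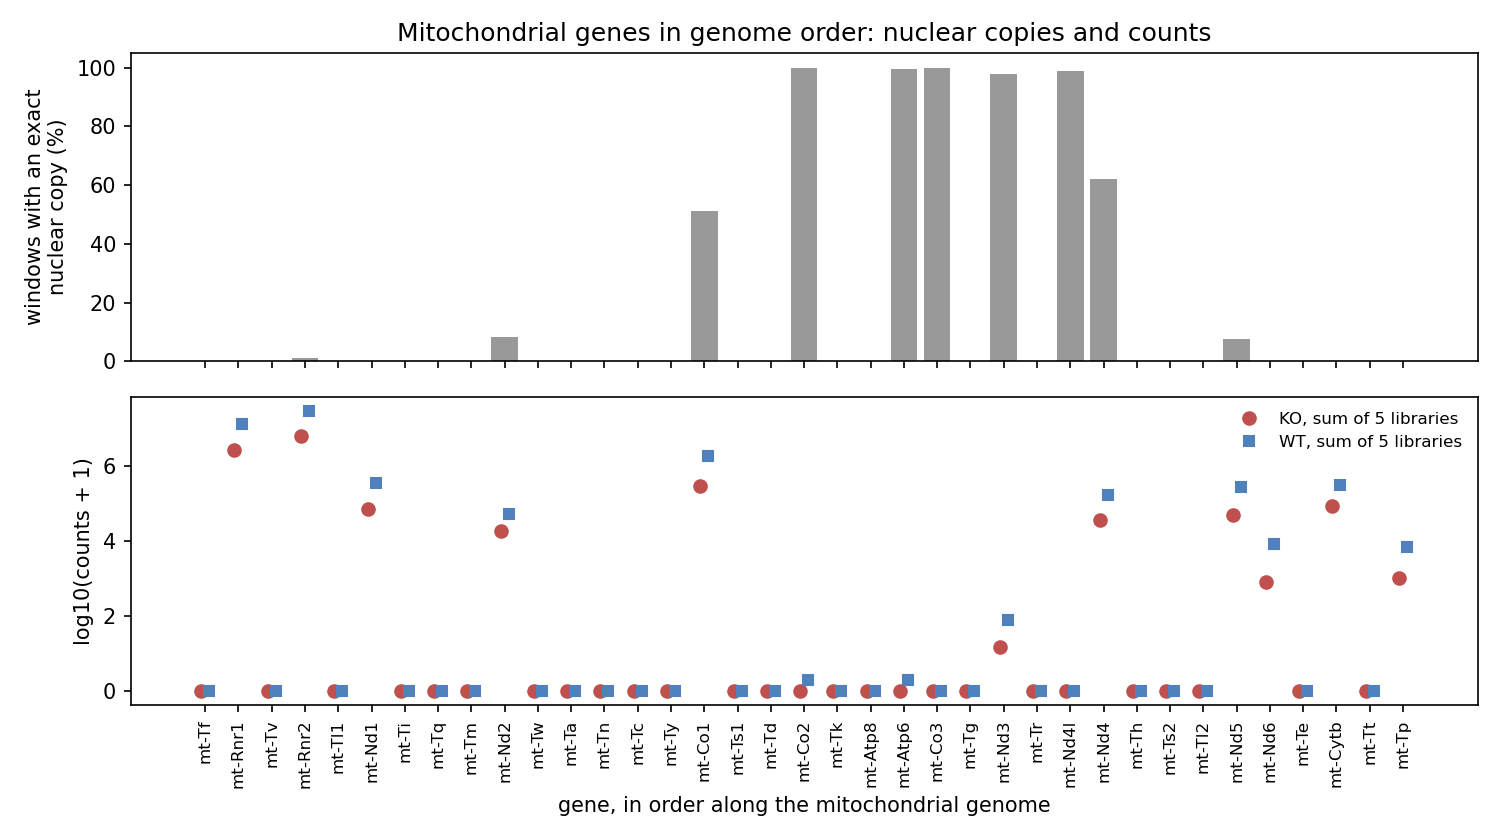
The upper panel gives the percent of 50-base windows of each mitochondrial gene with an exact copy in a nuclear GENCODE transcript, and the lower panel log10(counts + 1) summed over 5 KO (circles) and 5 WT (squares) libraries, with genes in genome order. mt-Co2, mt-Atp6, mt-Co3, mt-Nd3 and mt-Nd4l, at 98 to 100%, had 94 counts in all, and of the 22 transfer RNAs only mt-Tp had counts.

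Among transfer RNAs, mt-Tp, which carries proline, was the only one with counts, 1030 in KO and 6796 in WT. It lies at bases 15356 to 15422 on the minus strand. Its sequence, shown because it is the whole measured transfer RNA class, is 67 bases long.
mt-Tp: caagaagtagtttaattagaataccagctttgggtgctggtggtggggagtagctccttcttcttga
The transfer RNA genes are 59 to 75 bases long, and 20 of the 22 have 5 bases or fewer, or none, between them and an annotated gene on each side or the end of the numbering. No space beside a transfer RNA gene between 2 genes exceeds 32 bases. mt-Tp is the last gene in the numbering, with the control region of the genome and no annotated gene after it. mt-Tf, the first gene (bases 1 to 68), likewise has no annotated gene before it, and it had 0 counts in every library. Whether reads that touch 2 genes were left out is not stated, and its part in the zeros was not tested.

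The mitochondrial share of all counts was 9.72, 29.9, 23.2, 33.9 and 28.4% in KO libraries 1 to 5, against 45.3, 34.4, 42.6, 37.9 and 32.3% in WT libraries 1 to 5. KO libraries 1, 2, 3 and 5 were below every WT library, and KO library 4 lay above WT library 5, so the groups overlapped. The median was 28.4% in KO and 37.9% in WT. KO library 1, lowest by far, was also the library with the globin counts. With globin left out of its total its share was 12%, still the lowest of all. Leaving out the 100 other genes with the most counts narrowed the gap, to 27.7 to 41.5% in KO against 38.6 to 51.7% in WT. In bulk samples, fewer cells of a type and less RNA per cell cannot be told apart. A share also depends on every other gene in the library. Depth and genes detected moved with genotype in the same way, and their part in the share was not tested.

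**Figure D2:**
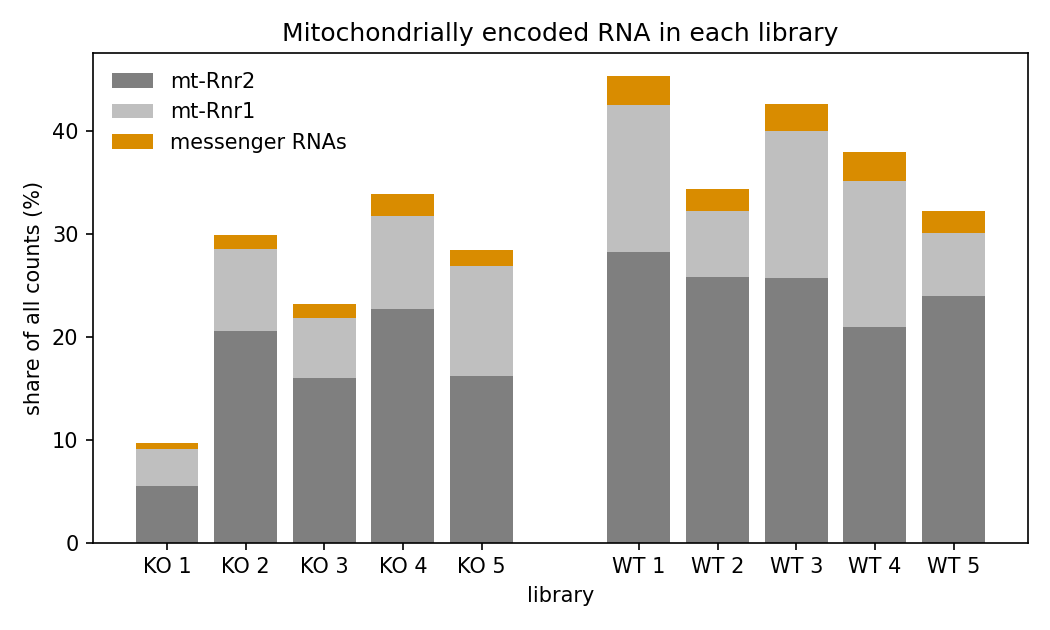
Stacked bars give the percent of all counts in mt-Rnr2, mt-Rnr1 and the mitochondrial messengers in each of 5 KO and 5 WT libraries. The bars reach 9.72 to 33.9% in KO and 32.3 to 45.3% in WT, and the ribosomal RNAs fill over 92% of every bar.

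Within the mitochondrial counts, the class shares of KO and WT libraries overlapped. Ribosomal RNA made up 93.4 to 95.4% in KO (median 94.2%) and 92.6 to 94.0% in WT (median 93.7%). Messengers made up 6.60, 4.59, 5.77, 6.57 and 5.23% in KO libraries 1 to 5, against 6.18, 6.31, 5.98, 7.36 and 6.75% in WT libraries 1 to 5. KO libraries 2, 3 and 5 were below every WT library in this share and above every one in the ribosomal share, and KO libraries 1 and 4 lay within the WT range of both. The transfer RNA class, which is mt-Tp alone, made up 0 to 0.0404% in KO and 0.00925 to 0.0231% in WT. Kits for total RNA often include a removal of ribosomal RNA, which can act on the mitochondrial ones as well. Whether that step was used here is not stated, so these shares describe the libraries and not the cells.

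mt-Rnr2 (bases 1094 to 2675), the RNA of the large mitochondrial ribosomal subunit, was the most counted gene of the 37 in all 10 libraries. It made up 56.6, 68.7, 69.2, 66.8 and 57.2% of mitochondrial counts in KO libraries 1 to 5, against 62.3, 75.0, 60.4, 55.3 and 74.4% in WT libraries 1 to 5. mt-Rnr1 (bases 70 to 1024), the RNA of the small subunit, was second in every library, at 36.8, 26.7, 25.0, 26.7 and 37.6% in KO, against 31.5, 18.7, 33.6, 37.4 and 18.8% in WT. The ratio of mt-Rnr1 to mt-Rnr2 counts was 0.650, 0.389, 0.361, 0.399 and 0.658 in KO, against 0.506, 0.249, 0.557, 0.676 and 0.253 in WT. It fell into a low and a high set in each genotype, and the ranges overlapped almost whole. Per kilobase and per 1000000 mitochondrial counts, mt-Rnr1 averaged 319836 ± 63989 in KO and 293217 ± 91005 in WT, and mt-Rnr2 averaged 402584 ± 39771 in KO and 413840.5 ± 55699 in WT (SD, n = 5 each). mt-Rnr1 exceeded mt-Rnr2 per kilobase in KO libraries 1 and 5 and in WT library 4, and not in the other 7.

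mt-Co1 (bases 5328 to 6872), the catalytic subunit of cytochrome oxidase, was the most counted messenger in every library. Per kilobase and per 1000000 mitochondrial counts it stood at 12373 to 21349 in KO (median 19589) and at 23727 to 31254 in WT (median 24033). As a share of mitochondrial counts it made up 1.91, 3.30, 2.63, 3.09 and 3.03% in KO libraries 1 to 5, against 3.71, 3.70, 3.67, 4.83 and 3.79% in WT libraries 1 to 5. Every KO library was below every WT library, which also held for 32.8% of the 7490 tested genes under the same scaling. The edgeR quasi-likelihood test, fitted on all genes with libraries scaled to the mitochondrial total, put the log2 fold change of mt-Co1 at −0.50 (SE 0.43, adjusted p = 0.474), which missed the threshold of 0.05. Set against messengers alone, its share was 29.0, 71.9, 45.5, 47.1 and 57.8% in KO, against 60.1, 58.7, 61.3, 65.6 and 56.1% in WT. The groups then overlapped, with KO library 2 the highest of all 10 and KO library 1 the lowest.

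mt-Nd2 (bases 3914 to 4951), a proton-pumping subunit of complex I, was the one messenger whose share of messenger counts was higher in every KO library than in every WT library. It made up 4.37, 2.73, 2.96, 3.50 and 3.32% of messenger counts in KO libraries 1 to 5, against 1.42, 1.40, 2.50, 1.48 and 1.88% in WT libraries 1 to 5. Of all tested genes, 0.441% stood above every WT library in this way when scaled to the messenger total. Its level after trimmed-mean (TMM) scaling, the scaling of the main test, was 887 ± 458 CPM in KO and 258 ± 93.1 CPM in WT (SD, n = 5 each), again without overlap, as for 0.774% of all tested genes. Both shares are taken over genes of every level. Of all tested genes, 92.9% had 3 counts or fewer in 1 or more KO libraries, where mt-Nd2 had at least 1336. The part of abundance in the comparison with these shares was not tested. As a share of mitochondrial counts the groups overlapped: 4 of 5 KO libraries were above every WT library. As a share of all counts it ran from 0.0281 to 0.0781% in KO and from 0.0304 to 0.0638% in WT, so it was not higher by that measure. With libraries scaled to the mitochondrial total, edgeR put the log2 fold change of mt-Nd2 at 0.82 (SE 0.95, adjusted p = 0.625). Scaled to the messenger total, edgeR put it at 0.96 (SE 0.97, adjusted p = 0.556). Part of mt-Nd2, 8.19% of its windows, has an exact nuclear copy.

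The other complex I messengers varied more among KO than among WT libraries. mt-Nd4 and mt-Nd5 encode proton-pumping subunits, and mt-Nd1 (bases 2751 to 3707) a subunit near the quinone site. mt-Nd4 (bases 10167 to 11544) made up 18.2, 1.87, 13.7, 5.14 and 2.44% of messenger counts in KO libraries 1 to 5, against 6.47, 5.49, 5.04, 5.46 and 5.46% in WT libraries 1 to 5. KO libraries 1 and 3 were above and KO libraries 2 and 5 below every WT library. The exact 95% binomial interval of the share was 17.7 to 18.6% in KO library 1 and 1.79 to 1.94% in KO library 2. The labels name no molecular identifiers to tell PCR copies apart, so such intervals and limits cover counting error only. mt-Nd5 (bases 11742 to 13565) made up 15.9, 4.98, 13.5, 6.52 and 13.4% in KO, against 8.23, 10.4, 8.31, 8.53 and 11.02% in WT. KO libraries 1, 3 and 5 were above every WT library and KO libraries 2 and 4 below. mt-Nd1 ran from 8.70 to 15.7% in KO (median 12.04%) and from 8.44 to 13.5% in WT (median 12.2%). The low WT end is WT library 4 alone, and the other WT libraries were at 12.2 to 13.5%. KO libraries 3 and 4 were above every WT library.

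mt-Cytb (bases 14145 to 15288), the core of complex III, made up 23.4, 6.52, 8.43, 23.8 and 13.04% of messenger counts in KO libraries 1 to 5, against 11.3, 10.3, 10.2, 10.1 and 11.8% in WT libraries 1 to 5. KO libraries 1, 4 and 5 were above and KO libraries 2 and 3 below every WT library. A sum of the 3 measured messengers farthest along the heavy-strand transcript, mt-Nd4, mt-Nd5 and mt-Cytb, was formed after their values were seen. It was 57.5, 13.4, 35.7, 35.5 and 28.8% of messenger counts in KO, against 26.0, 26.2, 23.6, 24.1 and 28.3% in WT. KO library 2 was below every WT library and the other 4 KO libraries above every one.

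The light-strand genes mt-Nd6 and mt-Tp had the fewest counts of the 10 genes in both genotypes. mt-Nd6 (bases 13552 to 14070, minus strand), a complex I subunit, had 148, 7, 81, 513 and 40 counts in KO libraries 1 to 5, against 1374, 1140, 2031, 2193 and 1243 in WT libraries 1 to 5. Its share of messenger counts was 0.485, 0.00561, 0.0701, 0.233 and 0.0743% in KO, against 0.204, 0.215, 0.373, 0.326 and 0.244% in WT. KO library 1 was the highest of all 10 libraries, and KO libraries 2, 3 and 5 were below every WT library. The share in KO library 2 had an exact 95% binomial interval of 0.00226 to 0.0116%. mt-Tp followed the same order at both ends: its counts were 187, 0, 336, 489 and 18 in KO libraries 1 to 5, against 1239, 1065, 2103, 1691 and 698 in WT libraries 1 to 5. That is 0.0404% of mitochondrial counts in KO library 1, the highest of all 10 libraries. In KO library 2 it is 0 of 2716956 mitochondrial counts, which allows a share of up to 0.00011%. The strand setting of the counting is not stated. Among 743 protein-coding genes wholly inside a gene of the other strand, 99.7% had no count in any library, against 40.3% of 11879 genes without overlap. Reads of mt-Nd6 and mt-Tp and reads of heavy-strand precursors across them cannot be told apart.

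**Figure D3:**
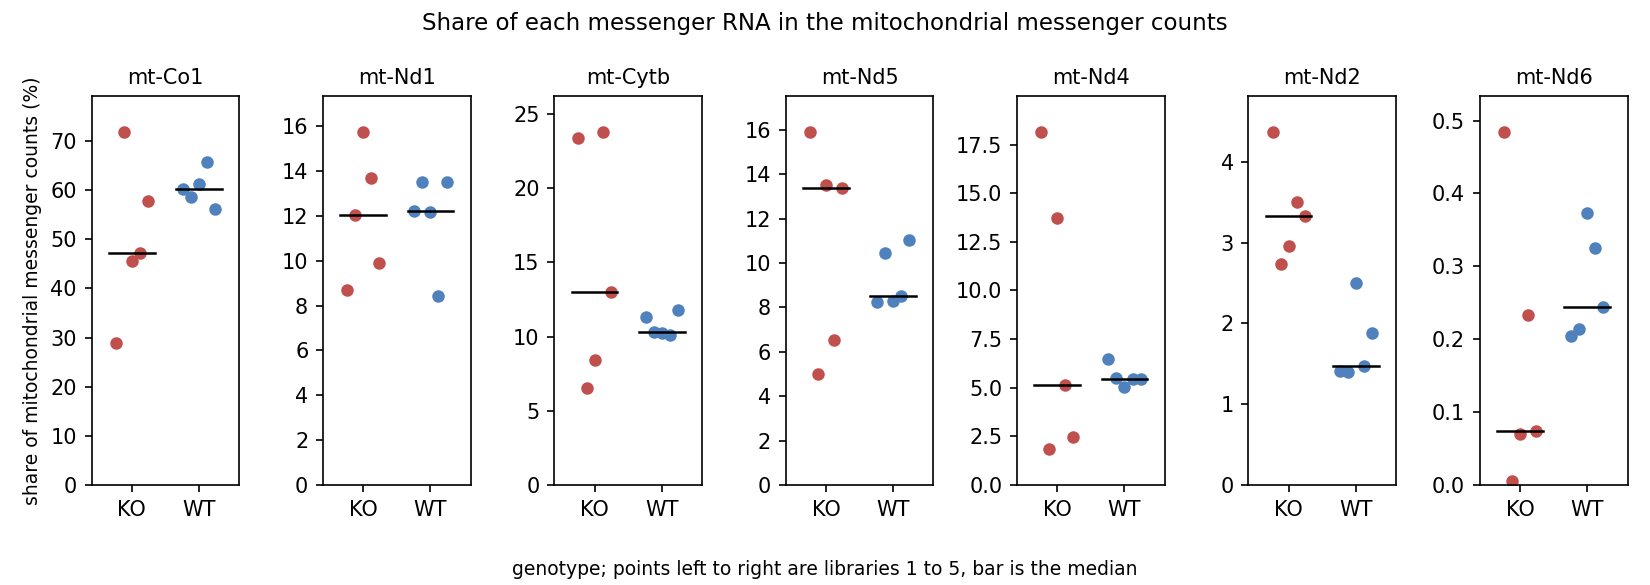
Each panel gives 1 measured messenger as percent of the mitochondrial messenger counts, on its own axis from 0, with 5 KO libraries left, 5 WT libraries right and bars at the medians. Only mt-Nd2 shows no overlap (2.73 to 4.37% in KO, 1.40 to 2.50% in WT). KO points spread more widely than WT points for mt-Co1, mt-Cytb, mt-Nd5, mt-Nd4 and mt-Nd6, the last with few counts.

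The spread can be put in numbers. The coefficient of variation of the share of messenger counts in KO and in WT was 88.1 and 9.46% for mt-Nd4, 54.4 and 7.01% for mt-Cytb, 44.2 and 14.2% for mt-Nd5 and 31.6 and 5.84% for mt-Co1. For mt-Nd6, with only 7 to 513 counts per KO library, it was 111 and 27.1%. For mt-Nd1 it was 23.6% in KO and 17.4% in WT, where WT library 4 alone was low, and for mt-Nd2 18.7% in KO and 27.2% in WT, where WT library 3 alone was above 1.88%. On the scale of log2(CPM + 1) after TMM scaling, the SD of the 10 mitochondrial genes that passed the filter ran from 0.30 to 3.03 in KO, with a median of 0.85. In WT it ran from 0.14 to 0.77, with a median of 0.38. The median SD of all 7490 tested genes was 2.31 in KO and 0.76 in WT. Detection was more complete for these genes too: 3 counts or fewer in 1 or more KO libraries were found for 1 of the 10, mt-Tp, and for 92.9% of all tested genes. These genes are also among the most counted of the table, and the part of abundance in this was not tested.

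The order of levels per kilobase was steady in WT and less so in KO. After the ribosomal RNAs, mt-Co1 came next in every WT library and in 4 of 5 KO libraries. In KO library 1 mt-Cytb stood above mt-Co1 per kilobase. That exception depends on the length used: 51.1% of mt-Co1 windows have an exact nuclear copy, and no mt-Cytb window has one. When only windows without a copy were counted as length, mt-Co1 came next in every KO and WT library. In KO library 1 it then reached 26151, against 14118 for mt-Cytb. mt-Cytb averaged 8002 ± 5237 in KO and 6122 ± 642 in WT per kilobase and per 1000000 mitochondrial counts (SD, n = 5 each), and mt-Nd1 7217 ± 2040 in KO and 8081 ± 1175 in WT. These neighbours did not differ beyond their spread in KO. mt-Nd5 averaged 3493 ± 1746 in KO and 3327 ± 573 in WT and mt-Nd4 3690 ± 3462 in KO and 2638 ± 303 in WT, also neighbours within their spread. mt-Nd2 averaged 1906 ± 607 in KO and 1081 ± 255 in WT, and mt-Nd6 214 ± 250 in KO and 342.3 ± 98.8 in WT. The length used is that of the whole gene. By median per kilobase, mt-Nd5 stood at 3833 in KO and 3440 in WT, and mt-Nd4 at 2450 in KO and 2676 in WT. Set against windows without a nuclear copy in place of length, mt-Nd4 reached a median of 6725 in KO and 7347 in WT. On the same scale mt-Nd5 reached 4263 in KO and 3826 in WT. The order of these medians therefore depends on whether copied sequence is counted as length. By mean, mt-Nd4 was first in KO either way, at 10130 against 3885 for mt-Nd5 when set against windows.

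KO and WT were compared gene by gene with edgeR's quasi-likelihood test on all 7490 genes that passed the filter, with p-values adjusted by Benjamini-Hochberg over all of them. With TMM scaling, 1 of the 10 mitochondrial genes tested was higher in KO and 0 were lower, against 1.5% of all tested genes higher and 27.1% lower. The gene was mt-Rnr2. Its level was 307952, 279943, 190063, 318788 and 257517 CPM in KO libraries 1 to 5, against 194714, 141243, 165408, 111889 and 127727 CPM in WT libraries 1 to 5. The KO libraries were above every WT library except KO library 3, which lay just below WT library 1. Its log2 fold change was 0.87 (SE 0.26, adjusted p = 0.0176) with TMM scaling and −0.56 (adjusted p = 0.125) with library size alone. The call was lost on leaving out KO library 2 or 4 or any of WT libraries 2 to 5, with adjusted p of 0.0538 to 0.119. It was also lost with RLE size factors (log2 fold change 2.06, edgeR adjusted p = 0.0651), with DESeq2 (1.98, 0.0616) and without the filter on low counts (0.55, 0.687). mt-Rnr1 had a log2 fold change of 1.01 (SE 0.41, adjusted p = 0.0757) with edgeR, and an adjusted p of 0.044 without KO library 1 and 0.0361 without KO library 3.

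None of the 8 other genes passed with edgeR and TMM scaling, and their log2 fold changes ran from 0.41 for mt-Co1 to 1.78 for mt-Nd2, with adjusted p from 0.233 to 0.864. The median of the 10 was 0.99, and that of all tested genes −0.47. The sign rests on the scaling: with library size alone, 9 of the 10 were below 0, with a median of −0.60, beside a median of −1.77 over all genes. TMM factors were 0.18 to 0.928 in KO and 1.46 to 1.91 in WT, so the scaling itself separates the genotypes. As shares of all counts, without such factors, mt-Co1 and mt-Nd5 were lower in every KO library than in every WT library, as were 37.1% of tested genes. mt-Co1 took 0.186 to 1.05% in KO and 1.22 to 1.83% in WT, and mt-Nd5 0.0684 to 0.199% in KO and 0.212 to 0.240% in WT. DESeq2, with its own size factors, called 4 of the 11 mitochondrial genes for which it gave an adjusted p, all higher in KO, against 12.1% of genes. They were mt-Nd2, mt-Nd4, mt-Nd5 and mt-Cytb, with adjusted p from 0.00937 to 0.0448, where the median log2 fold change of all genes stood at 1.24.

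Scaled to the mitochondrial total, which asks only whether the mix of these RNAs differed, 0 of the 10 genes passed with edgeR in either direction, against 0.935% of all tested genes higher and 29.7% lower. At an unadjusted p under 0.05 the count was 0 as well, and DESeq2 with size factors from the same totals also called 0. The 10 log2 fold changes ran from −0.68 for mt-Nd6 (SE 1.44) to 0.82 for mt-Nd2, with a median of 0.02, and 5 of them were above 0. The standard errors were 0.16 for mt-Rnr2, 0.43 for mt-Co1 and 0.66 to 1.59 for the other messengers and mt-Tp. mt-Rnr2 fills most of the total to which it was scaled, which holds its own value near 0.

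**Figure D4:**
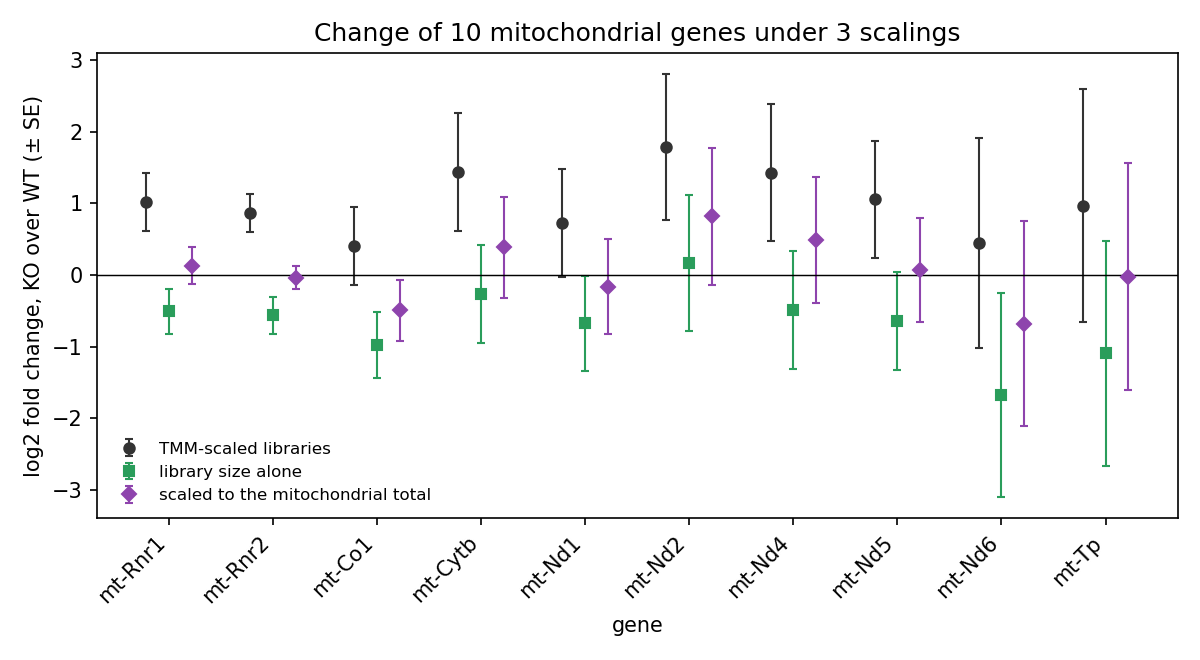
Points give log2 fold changes of KO over WT from edgeR for 10 mitochondrial genes, with standard errors as bars, for TMM-scaled libraries (circles), library size alone (squares) and libraries scaled to the mitochondrial total (diamonds). With TMM all 10 lie above 0, with library size alone 9 lie below 0, and with the mitochondrial total 5 lie on each side.

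Nuclear genes that maintain and express the mitochondrial genome were read from the same TMM-scaled edgeR test. Over all tested genes, 27.1% were lower in KO. A gene with next to no KO counts could pass the filter only through WT libraries and so could come out only as lower. The counts of tested genes below are therefore a description and say nothing particular about a list. Leaving out any 1 KO library raised the share of all tested genes lower in KO to between 33.7 and 37.9%, over more genes. Of 5 tested transcription genes, 2 fell and 0 rose: Tfam, which packages mitochondrial DNA and starts transcription, had 1 count in KO and 1399 in WT, and Mterf3, a repressor of it, had 1 and 1214. These were the only tested transcription genes with 3 or fewer counts in all KO libraries together. Tfb2m, the partner of the polymerase at promoters, had 1925 counts in KO and 774 in WT, with an edgeR adjusted p of 0.26. Without KO library 2 it was lower in KO, with an adjusted p of 0.00733, and 5 of 6 tested transcription genes then fell, beside 35.5% of all tested genes. Without KO library 1, 3, 4 or 5, 3 of 6 fell, beside 33.7 to 37.9% of all. Without any 1 WT library, 2 of 3 or 4 fell, beside 23.8 to 28.8% of all. The polymerase gene Polrmt, named after its values were seen, was too weak to test, with 0 counts in KO and 338 in WT. Of 7 tested genes of mitochondrial DNA replication, 5 fell and 0 rose, all 5 with 3 or fewer KO counts, among them Polg, the DNA polymerase (1 and 1352 counts in KO and WT), and Ssbp1, the single-strand binding protein (0 and 2566). Without any 1 KO library, 8 or 9 of 10 tested replication genes fell, beside the 33.7 to 37.9% of all tested genes.

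Of 14 tested genes of mitochondrial RNA processing and decay, 10 fell and 0 rose, and 9 of the 10 had 3 or fewer KO counts. Elac2 and Trmt10c, which act in cutting transfer RNA ends, had 0 counts in KO against 859 and 1005 in WT, and Grsf1, an RNA granule protein, had 0 in KO and 2246 in WT. Rexo2, an exonuclease for short RNA, had 3 in KO and 5715 in WT. Lrpprc, which stabilises mitochondrial messengers, had 1817 counts in KO, 1721 of them in KO library 4, and 2499 in WT (edgeR adjusted p = 0.493). Of 6 tested genes that modify transfer and ribosomal RNA, 1 fell, Trmt5 (0 counts in KO and 740 in WT). Without any 1 KO library, 5 to 8 of 12 fell, without WT library 1, 2 of 7 (28.8% of all tested genes), and without WT library 3, 4 or 5, 0 (23.8 to 24.5% of all). The median log2 fold change was −2.58 for transcription, −6.67 for replication, −5.47 for processing and −1.30 for modification, with genes at 0 in KO set to a bound of 3 counts over the group, and −0.47 for all tested genes.

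Of 11 tested aminoacyl-tRNA synthetases of mitochondria, 2 fell, Tars2 and Yars2 (each at 0 in KO, 1076 and 768 counts in WT), and 1 rose. The riser was Lars2, the leucine enzyme, with 194293, 83205, 48752, 45372 and 3109 counts in KO libraries 1 to 5, against 23605, 54625, 66343, 27950 and 56544 in WT libraries 1 to 5. With edgeR its log2 fold change was 5.46, at an adjusted p of 0.00183. It was 2.54 when KO library 1 was left out, which held 194293 of its 374731 KO counts. DESeq2 gave Lars2 no adjusted p. Its TMM-scaled level was 51113.7 ± 99284.5 CPM in KO and 1158.9 ± 556.9 CPM in WT (SD, n = 5 each). The next most counted synthetase in KO, Fars2, had 3021 counts in KO and 13034 in WT. Whether all reads counted as Lars2 came from its messenger was not tested. Without KO libraries 1 to 5 in turn, 6, 3, 5, 4 and 4 synthetases fell, of 14 tested (13 without KO library 5). Of all tested genes, 33.7, 35.5, 37.9, 37.8 and 36.6% were lower in these fits. Without WT library 1, 4 of 12 fell, beside 28.8% of all. Without WT library 2, 2 of 10 fell, beside 24.9%. Without WT library 3, 4 or 5, 1 of 9 fell, beside 23.8 to 24.5%. Of 47 tested mitoribosomal protein genes, 28 fell and 0 rose, 24 of the 28 with 3 or fewer KO counts, with a median log2 fold change of −4.54 with genes at 0 in KO set to their bound. Mrps5 and Mrps30, small-subunit proteins of that ribosome, had 0 counts in KO against 1057 and 970 in WT. Without any 1 KO library, 43 to 46 of 65 tested mitoribosomal genes fell, and 1 rose without KO library 1 or 3, where 33.7 and 37.9% of all tested genes fell.

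Of 74 tested nuclear subunits and assembly genes of oxidative phosphorylation, 25 fell and 0 rose, with a median log2 fold change of −1.76. That is 33.8%, near the 27.1% of all tested genes, and 19 of the 25 had 3 or fewer KO counts. Without KO libraries 1 to 5 in turn, 28, 37, 39, 38 and 32 of 79 fell. Of all tested genes, 33.7, 35.5, 37.9, 37.8 and 36.6% were lower in these fits. Without KO library 1, 0 of the 79 rose, and without any other KO library 1 rose. Cox5b and Ndufa7, partners of mt-Co1 and of the mitochondrial complex I subunits, had 0 counts in KO and 1622 and 1812 in WT. After TMM scaling, Atp5b, the catalytic subunit of ATP synthase, stood at 697 ± 632 CPM in KO and 623 ± 132 CPM in WT (SD, n = 5 each, edgeR adjusted p = 0.935). Its unscaled counts were 21619 in KO and 125364 in WT. Of 7 tested regulators of mitochondrial biogenesis, 2 fell, Pprc1 (1 count in KO and 4026 in WT) and Nrf1 (3 in KO and 4974 in WT), and the median was −0.89. That is 28.6%, close to the 27.1% of all tested genes. Low depth and missing genes in KO libraries moved with these counts, and their part in them was not tested.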

How the data were processed

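The table deposited by the authors holds raw whole-number counts, a column for each library. STAR 2.6.0c, SAMtools 1.8, HTSeq 0.9.1 and GRCm38 are named in the submitters' processing notes. Strand setting, overlap rule and treatment of reads with several matches are not stated there. Of 54838 identifiers, 54809 matched GENCODE M21, used for positions, transcripts and gene classes. No genome sequence was used, so nuclear copies were sought among transcripts, with blastn 2.17.0 (at least 90% identity over 100 bases) and exact 50-base windows.

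Counts were tested with edgeR 4.0.16 (R 4.3.3): filterByExpr with its minimum of 10, TMM or mitochondrial-total scaling, quasi-likelihood test, Benjamini-Hochberg adjustment over 7490 genes, threshold 0.05. A standard error is the log2 fold change divided by the square root of F. DESeq2 1.42.0, other scalings, filters and single libraries left out were alternatives, and the test was tried on simulated data. Sums over the genes got no test. Members and lists were chosen with earlier results of these data known. All 37 genes were to be named, and of each nuclear list up to 4 passing genes with the smallest p and up to 4 with the highest mean level, from which examples were taken.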

Additional observations from a re-analysis of the deposited data

Results flagged for a closer look

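In 24 groups of 5 libraries, each 1 quantity in 1 genotype, the lowest and highest library were set against the others, and 1 stood apart: mt-Nd1 made up 8.44% of messenger counts in WT library 4, against 12.2 to 13.5% in the other WT libraries. Chance flags about 1 in 20 such groups.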

How the results depend on the processing

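The count of mitochondrial genes higher in KO with TMM scaling, 1 in the main test, was 0 with RLE size factors, library size alone or no filter on low counts, 2 without globin genes and 4 with DESeq2, and 0 to 2 without single libraries. The count lower in KO was 0 throughout, and with the mitochondrial total both counts were 0 under every alternative. With library size alone log2 fold changes turned to −0.51 for mt-Rnr1, −0.56 for mt-Rnr2, −0.68 for mt-Nd1, −0.98 for mt-Co1, −0.49 for mt-Nd4, −0.65 for mt-Nd5, −1.68 for mt-Nd6, −0.27 for mt-Cytb and −1.09 for mt-Tp, since the TMM factors differ between genotypes. Without single libraries, TMM-scaled values ran from −0.61 to 1.18 for mt-Nd6 and −0.19 to 1.70 for mt-Tp, and within the mitochondrial total from −0.0949 to 0.0137 for mt-Rnr2, −0.11 to 0.76 for mt-Nd4, −0.19 to 0.28 for mt-Nd5 and −0.85 to 0.30 for mt-Tp. Scaled to the messenger total, mt-Rnr2 stood at 0.16 and mt-Nd1 at 0.0059; the cause of these sign changes near 0 was not tested. The median mitochondrial share of all counts was lower in KO, by a difference of −9.54 points, which ran from −12.2 to −7.77 points without single libraries. Without single libraries, the median difference of KO minus WT ran from 0.137 to 0.809 points for the ribosomal share (0.534 with all), from −0.806 to −0.14 for the messenger share (−0.539 with all) and from −0.00446 to 0.00304 for mt-Tp (0.00196 with all), the last with a change of sign. As a share of messenger and transfer counts alone, another scale, the difference for mt-Tp was 0.0219 points. No paired analysis was possible because the labels give no numbers shared between genotypes.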
